A study of Mus musculus with 2 samples.

Results

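The cells described here are tumor-infiltrating natural killer (NK) cells that carried transcripts of the dividing cell. Cells were selected on measured transcripts: a cell was taken as cycling where at least 3 of 8 genes (Mki67, Birc5, Rrm2, Ccna2, Ccnb2, Ube2c, Cdca8 and Top2a) had at least 1 unique molecular identifier (UMI, a tag that counts a captured transcript once) and where Cd3d and Cd3e together had under 2 UMIs. The rule found 150 cells among the 6622 kept, 21 of 3067 in the KO library and 129 of 3555 in the WT library. KO stands for mice that lack Hif1a in NK cells (NK-Hif1a-/-, "Hif1a KO in NK cells" in the labels), and WT for wildtype mice. Hif1a encodes the oxygen-regulated subunit of a hypoxia-inducible transcription factor. Mice of both genotypes had been injected under the skin with RMA-S, a lymphoma line of mice whose cells carry little MHC class I, 2 weeks earlier. CD3ε-negative NK1.1-positive cells had been sorted from the tumors and made into 10x Chromium 3′ libraries. There was 1 library per genotype, so no comparison below was tested, and genotype cannot be told apart from library, mouse or tumor. The labels do not give the Cre line, the mouse age or the number of mice or tumors pooled.

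Dividing cells copy their DNA in S phase and separate it in mitosis, and both steps call for waves of transcription. E2F factors drive genes for nucleotide supply and DNA replication, and the DREAM and MuvB complexes, with B-Myb and FoxM1, drive genes for the spindle, the kinetochore and cyclin B through short promoter elements. NK cells divide in response to interleukins such as IL-2 and IL-15, and in mice they divide more as immature cells than as terminally mature ones.

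Hif1a transcripts were found in the cycling cells of both genotypes. The gene lies on chromosome 12, 73901375 to 73947530, plus strand (GRCm38, positions from GENCODE M21), and it had 14 UMIs in 8 KO cycling cells (48.0 CPM), against 125 UMIs in 70 WT cycling cells (65.8 CPM), and 60.5 CPM in other KO cells, against 57.3 CPM in other WT cells. A 3′ tag can lie outside the deleted part of a gene, so these values check neither label. The name of the cells was checked against other markers. All 12 NK markers had UMIs in the cycling cells of both libraries, among them Ncr1, the NKp46 receptor, and Nkg7, a granule protein. Their summed level was 25058 UMIs per 1000000 UMIs (counts per 1000000, CPM) in KO cycling cells, against 27530.4 CPM in other KO cells. In WT it was 25697 CPM in cycling cells, against 27696 CPM in other cells. At least 2 NK markers were found in each of the 21 KO and 129 WT cycling cells. They were also found in 100% of other cells in both libraries, so this count does not set cycling cells apart. Of 12 T-cell markers 9 were listed, and Cd3e, Cd4, Cd8a, Cd8b1, Cd5 and Themis were at 0 in the cycling cells of both libraries. The rule holds Cd3d and Cd3e together under 2 UMIs in cycling and other cells alike, so neither gene is a check. Both are part of the sums that follow. Summed, the listed T-cell markers had 58.3 CPM in KO cycling cells, against 28.5 CPM in other KO cells, and 61.1 CPM in WT cycling cells, against 55.6 CPM in other WT cells. In KO a single cell held 15 of the 17 UMIs and 18 of 21 cells had none. In WT 78 of 129 cells had none. At least 2 T-cell markers were carried by 4.65% of WT cycling cells, against 1.86% of other WT cells. In KO they were carried by 0% of cycling cells, against 0.881% of other cells. Depth-weighted, other KO cells had 52.6 CPM and other WT cells 110.2 CPM. Of 9 myeloid markers 2 had UMIs in KO and 4 in WT cycling cells, at 17.1 CPM in KO cycling cells, against 201 CPM in other KO cells, and at 54.8 CPM in WT cycling cells, against 133 CPM in other WT cells. Depth-weighted, other KO cells had 559 CPM and other WT cells 78.7 CPM. At least 2 myeloid markers were carried by 0% of KO cycling cells, against 2.91% of other KO cells. In WT they were carried by 10.9% of cycling cells, against 1.98% of other cells. Erythroid markers summed to 226 CPM in KO cycling cells, against 298 CPM in other KO cells. In WT they summed to 126 CPM in cycling cells, against 856 CPM in other cells. When depth-weighted, other cells had 248.8 CPM in KO and 287.0 CPM in WT. At least 2 erythroid markers were carried by 61.9% of KO cycling cells, against 22.6% of other KO cells. In WT they were carried by 32.6% of cycling cells, against 7.73% of other cells. These shares of cells were not matched for depth. Csf1r, C1qa, C1qb, Adgre1, Cd79a, Ms4a1 and the collagen genes Col1a1, Col1a2 and Col3a1 were at 0 in the cycling cells of both. Other cells here means kept cells with under 2 Cd3d and Cd3e UMIs that were not cycling, 2952 in KO and 3233 in WT.

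Cycling cells were far deeper than the rest. They had 2069 to 26251 UMIs per cell in KO (median 14826), against 1464 to 29202 in other KO cells (median 3750.5). In WT they had 2444 to 47510 (median 12792), against 2364 to 52557 in other WT cells (median 4334). The median was thus 3.95 times that of other cells in KO and 2.95 times in WT. Detected genes per cell had medians of 3266 in KO cycling cells, against 1502 in other KO cells, and of 3310 in WT cycling cells, against 1603 in other WT cells. A rule that asks for several transcripts favors deep cells, doublets were not removed, and the part of either in the values below was not tested. Cycling cells are therefore set also against other cells weighted to the UMI make-up of the cycling cells (depth-weighted), and, for some lists, against other cells with both sides held to at least 9000 UMIs. The deepest class of that weighting, from 18000 UMIs, held only 7 other KO and 13 other WT cells. The same class held 7 KO and 29 WT cycling cells, and the weights follow the UMIs of cycling cells. Depth-weighted values of both libraries therefore rest heavily on those few other cells. The libraries shared 19 cell barcodes, which 0 KO and 2 WT cycling cells carried. The sums over cycling cells were 291768 UMIs in KO and 1899005 in WT, so that 1 UMI was worth 3.43 CPM in KO and 0.527 CPM in WT, and a count of 0 allowed up to 10.3 CPM in KO and 1.58 CPM in WT (3 counts). Intervals in parentheses are exact 95% intervals that cover counting error only.

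The 8 genes that chose the cells are described without a test. Of the KO cycling cells 5 carried all 8, as did 33 of the WT cycling cells. At the threshold, 4 KO and 22 WT cells just inside carried 3 genes, with median depths of 15619 UMIs in KO and 8558 in WT. Just outside it, 22 KO and 92 WT cells carried 2, with median depths of 5052 UMIs in KO and 5590 in WT. A list of 48 G2 and M phase genes that leaves the 8 out had 2740.0 CPM in the KO cells just inside, against 2489 CPM just outside, and 2275 CPM in the WT cells just inside, against 1724 CPM just outside. It reached 9572 CPM in KO and 9728 CPM in WT cells that carried all 8.

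**Figure D1:**
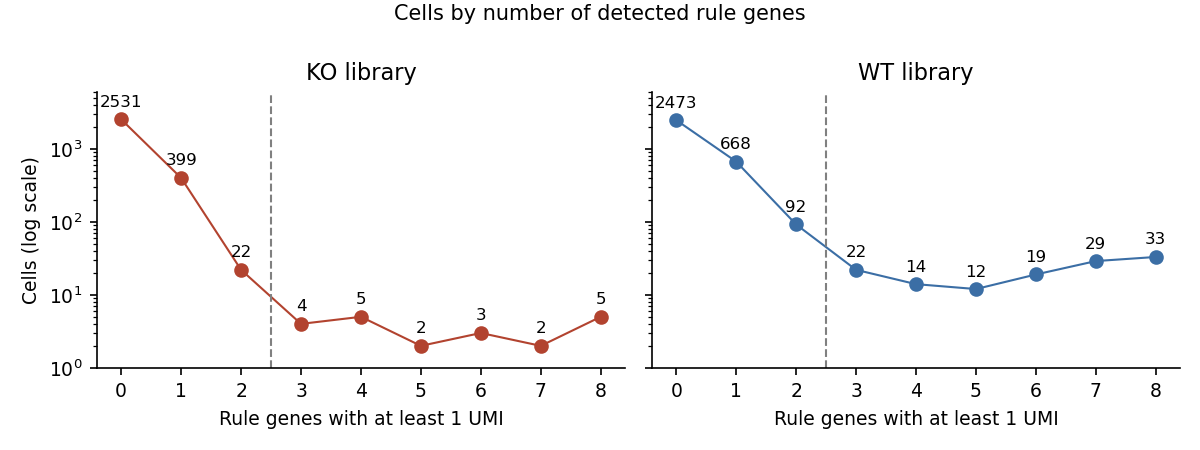
Kept cells with under 2 Cd3d and Cd3e UMIs of the KO library (left) and the WT library (right) by the number of the 8 rule genes with at least 1 UMI; the y axis is logarithmic, the number of cells is printed at each point and the dashed line marks the threshold of 3. The counts fall to 2 cells with 5 genes in KO and 12 in WT, and are 5 in KO and 33 in WT for all 8.

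Birc5, which encodes survivin of the chromosomal passenger complex (chromosome 11, 117849251 to 117855743, plus strand), was at 229.6 CPM (178 to 292) in KO cycling cells, against 3.07 CPM in other KO cells, and at 298 CPM (273 to 323) in WT cycling cells, against 6.06 CPM in other WT cells. Top2a, the topoisomerase that untangles sister chromatids (chromosome 11, 98992943 to 99024189, minus strand), was at 456 CPM (382 to 540.2) in KO cycling cells, against 23.2 CPM in other KO cells, and at 285 CPM (261 to 309.9) in WT cycling cells, against 25.5 CPM in other WT cells. It was the rule gene with the highest level in KO, whereas Birc5 was the highest in WT. Rrm2, the small subunit of the enzyme that makes deoxynucleotides (chromosome 12, 24708241 to 24714146, plus strand), had 332 CPM (269.6 to 406) in KO cycling cells, against 6.38 CPM in other KO cells, and had 274 CPM (251 to 299) in WT cycling cells, against 8.66 CPM in other WT cells. Mki67, the Ki-67 coat of mitotic chromosomes (chromosome 7, 135689784 to 135716361, minus strand), was found in 16 of 21 KO and 92 of 129 WT cycling cells and stood at 185 CPM in KO and 148 CPM in WT. Ube2c, the ubiquitin-conjugating enzyme of the anaphase-promoting complex, had 123 CPM in KO cycling cells and 186 CPM in WT cycling cells. Cdca8, the passenger protein borealin, had 130.2 CPM in KO and 147 CPM in WT. The cyclins Ccnb2 and Ccna2 had 113 and 89.1 CPM in KO cycling cells, against 169.6 and 111 CPM in WT cycling cells. Ccna2 was found in 10 of 21 KO and 84 of 129 WT cycling cells, the fewest of the 8 in both libraries.

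Because the rule genes and the replication genes were high together, the DNA around some of their starts is shown. RefSeq windows (GRCm38.p6) from 100 bases before to 30 after the start were read 5′ to 3′ on the gene's strand. Capitals mark the cell cycle homology region (CHR, searched as TTTGAA and TTCGAA) and the CCAAT box, on either strand, in the 5 rule genes with a CHR match in that window. In Cdca8 a CHR and a CCAAT match share 1 base.
Mki67 (chr7:135716350-135716479, minus strand): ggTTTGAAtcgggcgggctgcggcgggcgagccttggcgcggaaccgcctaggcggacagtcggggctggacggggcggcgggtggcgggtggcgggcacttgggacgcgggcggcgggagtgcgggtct
Ccnb2 (chr9:70421525-70421654, minus strand): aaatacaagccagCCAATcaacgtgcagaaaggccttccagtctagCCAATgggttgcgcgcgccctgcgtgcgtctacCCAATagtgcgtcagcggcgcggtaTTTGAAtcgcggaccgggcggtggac
Ube2c (chr2:164769829-164769958, plus strand): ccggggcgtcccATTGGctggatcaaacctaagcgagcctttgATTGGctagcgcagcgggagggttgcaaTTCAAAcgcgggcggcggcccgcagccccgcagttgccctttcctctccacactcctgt
Cdca8 (chr4:124936888-124937017, minus strand): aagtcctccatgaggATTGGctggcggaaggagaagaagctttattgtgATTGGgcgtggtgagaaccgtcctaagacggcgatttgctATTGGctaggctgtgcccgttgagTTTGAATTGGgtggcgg
Top2a (chr11:99024160-99024289, minus strand): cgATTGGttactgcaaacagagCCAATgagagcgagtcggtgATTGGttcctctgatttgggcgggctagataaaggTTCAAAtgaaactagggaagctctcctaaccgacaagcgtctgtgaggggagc
The next 3 windows are examples of replication genes with an E2F match, 1 each of the helicase, the origin complex and the primase; others with a match there, such as Mcm3 and Rfc3, are not shown. Capitals mark E2F elements (searched as TTTGGCGC, TTTCGCGC and TTCCCGCC).
Mcm7 (chr5:138171854-138171983, minus strand): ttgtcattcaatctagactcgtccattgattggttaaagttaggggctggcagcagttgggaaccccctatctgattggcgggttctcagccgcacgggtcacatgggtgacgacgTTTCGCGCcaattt
Orc1 (chr4:108579354-108579483, plus strand): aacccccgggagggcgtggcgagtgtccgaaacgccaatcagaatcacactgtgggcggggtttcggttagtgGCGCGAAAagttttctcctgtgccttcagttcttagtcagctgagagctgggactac
Prim1 (chr10:128015115-128015244, plus strand): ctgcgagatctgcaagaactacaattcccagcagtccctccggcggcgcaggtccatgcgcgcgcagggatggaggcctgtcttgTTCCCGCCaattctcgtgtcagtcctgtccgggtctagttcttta
Mcm7 is a subunit of the replicative helicase, Orc1 of the origin recognition complex, and Prim1 of the primase.

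Windows were matched for 7 of the 8 rule genes, all but Ccna2. Over the full 300 bases, a CHR match was present in 5 of these 7 (71.4%), against 19.2% of all 32851 promoters. It was present in 71.4% of 49 promoters of the kinetochore and spindle lists with the rule genes left out (mitosis promoters). In the replication list it was present in 24.2% of 33 promoters. At least 2 CCAAT boxes were found in 71.4% of the rule genes, 49.0% of the mitosis promoters and 33.3% of the replication promoters, against 11.7% of all. E2F matches ran the other way, with 42.4% of the replication promoters and 6.12% of the mitosis promoters, against 2.96% of all, and none among the 7 rule genes. The matches describe letters in these windows and no binding was measured.

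Cycling cells were the smaller share of the KO library. They were 21 of 2973 KO cells with few Cd3 transcripts (0.706%, 0.438 to 1.08%), against 129 of 3362 WT cells (3.84%, 3.21 to 4.54%). They gave 2.30% of the UMIs of those cells in KO and 10.5% in WT. The share went up steeply with depth in both libraries. From 9000 UMIs it was 17 of 98 cells (17.3%, 10.4 to 26.3%) in KO, against 101 of 307 cells (32.9%, 27.7 to 38.5%) in WT. Below 9000 UMIs it was 4 of 2875 cells (0.139%, 0.0379 to 0.356%) in KO, against 28 of 3055 cells (0.917%, 0.610 to 1.32%) in WT. The KO share was the lower one in each of the 7 depth classes, although the intervals were apart only in the class from 6500 to under 9000 UMIs, at 0 of 204 KO cells (up to 1.79%) and 16 of 409 WT cells (3.91%, 2.25 to 6.28%). Other cells from 9000 UMIs were themselves fewer in KO, 81, against 206 in WT. With every cell thinned to 2500 UMIs, which left out 412 KO and 90 WT cells as too shallow, 8 of 2561 KO cells (0.312%, 0.135 to 0.615%) still met the rule, against 71 of 3272 WT cells (2.17%, 1.70 to 2.73%). Unthinned, the same cells gave 0.742% in KO and 3.91% in WT. Weighting the KO cells to the WT depth classes brought the KO share to 1.68%, and leaving out the 3% of cells with most UMIs left 0.173% in KO and 2.35% in WT. The sort on NK1.1 and CD3ε and the calling of barcodes, whose shallowest barcode had 1464 UMIs in KO and 2364 in WT, can both set these shares.

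**Figure D2:**
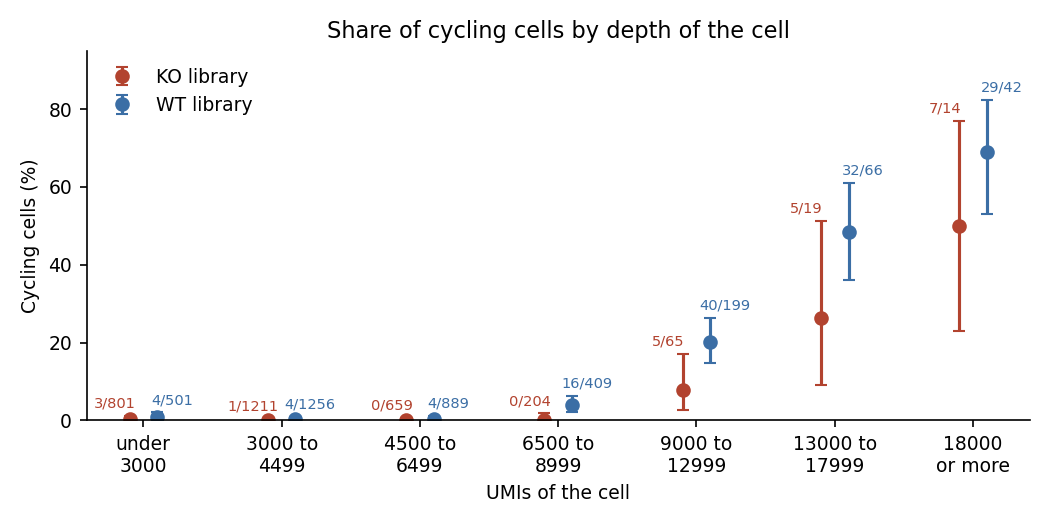
Share of cycling cells (percent, y axis) in classes of UMIs per cell (x axis) for the KO library (red) and the WT library (blue); bars are exact 95% binomial intervals and labels give cycling cells over all cells of the class. In the deepest class 7 of 14 KO and 29 of 42 WT cells were cycling, and from 4500 to under 9000 UMIs the KO library had none.

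Genes of the cell cycle were the main named group among those that set the cycling cells apart. At least 2-fold higher CPM in cycling than in other cells was seen for 614 of 9354 genes in KO (6.56%) and 420 in WT (4.49%), on a log2 scale with 5 CPM added and for genes whose UMIs in both libraries came to at least 100. At least 2-fold lower were 1093 in KO (11.7%) and 177 in WT (1.89%). In both libraries at once, 328 genes were higher (3.51%), 138 of them among the 190 genes of the cell cycle lists past the minimum (rule genes included), and 106 were lower (1.13%). Against depth-weighted other cells 226 were higher in both (2.42%), 126 of them in those lists, and 20 lower (0.214%). By both comparisons 193 stayed higher, 118 of them in the lists, and only 2 lower. The median gene had a log2 ratio of -0.10 in KO and -0.02 in WT. A cell cycle gene found mainly in these cells passes the minimum through them, so the counts and medians of lists are descriptions.

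Replication genes were higher throughout. Of 34 genes for licensing, fork and clamp, 31 passed the minimum, and these 31 were at least 1.5-fold higher in both libraries, where 15.9% of all genes were in KO and 12.1% in WT. Their median log2 ratio was 1.99 in KO and 1.79 in WT, and 1.45 in KO and 1.21 in WT against depth-weighted cells. The whole list summed to 3839 CPM in KO cycling cells, against 1046 CPM in other KO cells, and 3409 CPM in WT cycling cells, against 1038 CPM in other WT cells. Mcm5, a subunit of the replicative helicase, was at 223 CPM (172 to 284) in KO cycling cells, against 21.9 CPM in other KO cells, and at 166 CPM (149 to 186) in WT cycling cells, against 23.8 CPM in other WT cells. Lig1, the ligase that joins Okazaki fragments, had 178 CPM (133 to 234) in KO cycling cells, against 19.3 CPM in other KO cells, and had 146 CPM (129.7 to 165) in WT cycling cells, against 18.2 CPM in other WT cells. Cdc6 and Cdc45, which load the helicase and travel with it, were lower in level. Cdc6 had 13 UMIs in KO and 82 in WT cycling cells, with log2 ratios of 3.20 in KO and 2.89 in WT. For Cdc45 the ratios were 3.15 in KO and 2.55 in WT.

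Enzymes of nucleotide supply followed. Of 15 listed, 14 passed the minimum, of which 14 in KO and 13 in WT were at least 1.5-fold higher, with median log2 ratios of 1.47 in KO and 1.42 in WT (0.81 in KO and 0.79 in WT depth-weighted). Tk1, the S-phase thymidine kinase, was at 171 CPM (127 to 226) in KO cycling cells, against 2.34 CPM in other KO cells, and at 104 CPM (90.2 to 119.8) in WT cycling cells, against 5.32 CPM in other WT cells. Tyms, thymidylate synthase, was at 226 CPM (175 to 288) in KO cycling cells, against 10.8 CPM in other KO cells, and at 156 CPM (139 to 175) in WT cycling cells, against 16.6 CPM in other WT cells. Dut, which keeps uracil out of DNA, reached 394 CPM in KO and 303 CPM in WT cycling cells. The log2 ratios of Tk1 were 4.59 in KO and 3.40 in WT, and 2.23 in KO and 2.38 in WT against depth-weighted cells. The histone list held 21 genes, of which 17 passed. Replication-dependent histone messages mostly lack a poly(A) tail, so a poly(A) library records only part of them. Hist1h2ap, an H2A gene, had the largest ratio of the list, at 1025 CPM (912 to 1148) in KO cycling cells, against 17.2 CPM in other KO cells, and at 1705 CPM (1646 to 1764) in WT cycling cells, against 37.1 CPM in other WT cells. Its depth-weighted log2 ratios were 5.74 in KO and 4.81 in WT. Hist1h1b, a linker histone, had 123 CPM in KO cycling cells, against 4.36 CPM in other KO cells, and had 80.6 CPM in WT cycling cells, against 7.67 CPM in other WT cells. Histone genes are near-identical copies, and how reads shared among them were counted is not given in the sources used here.

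The regulators of the cycle were more mixed. Of 18 cyclins, kinases and their partners, 14 passed, with 9 at least 1.5-fold higher and 1 lower in KO, and 10 higher and 1 lower in WT. At least 1.5-fold lower were 26% of all genes in KO and 10% in WT. Cdk1, the mitotic kinase, was at 130.2 CPM (92.2 to 179) in KO cycling cells, against 3.96 CPM in other KO cells, and at 138 CPM (122 to 156) in WT cycling cells, against 5.26 CPM in other WT cells. Cks1b, a small subunit that binds it, was at 229.6 CPM (178 to 292) in KO cycling cells, against 7.83 CPM in other KO cells, and at 255 CPM (233 to 279) in WT cycling cells, against 13.9 CPM in other WT cells. Ccne1, cyclin E1 of the entry into S phase, was lower in level, at 51.4 CPM in KO cycling cells, against 3.15 CPM in other KO cells, and at 36.3 CPM in WT cycling cells, against 4.02 CPM in other WT cells. Ccnb1, cyclin B1, had 7 UMIs in KO and 78 in WT cycling cells, with log2 ratios of 2.40 in KO and 2.66 in WT. Among the inhibitors and the RB and E2F genes, 14 of 19 passed, and 8 in KO and 8 in WT were at least 1.5-fold higher. E2f1, an activator of S-phase genes, was at 154 CPM (112 to 206) in KO cycling cells, against 22.1 CPM in other KO cells, and at 94.8 CPM (81.4 to 109.7) in WT cycling cells, against 16.4 CPM in other WT cells. Cdkn3, a phosphatase of CDKs, had log2 ratios of 3.01 in KO and 3.42 in WT, and Mybl2, the B-Myb partner of MuvB, of 2.28 in KO and 2.39 in WT.

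Kinetochore and spindle genes gave the largest medians of the 10 lists of cell cycle roles. The kinetochore, passenger and checkpoint list had a median log2 ratio of 2.77 in KO and 2.83 in WT over 17 of 23 genes (2.93 in KO and 2.27 in WT depth-weighted). The spindle, kinesin and cytokinesis list had 2.84 in KO and 2.47 in WT over 18 of 30 (2.91 in KO and 2.58 in WT depth-weighted). At least 1.5-fold higher in both libraries were 15 of the first and 18 of the second, where 8.17% of all genes were. Spc24, of the kinetochore complex that binds microtubules, was at 189 CPM (142 to 245) in KO cycling cells, against 5.89 CPM in other KO cells, and at 146 CPM (129.7 to 165) in WT cycling cells, against 6.0 CPM in other WT cells. Aurkb, the kinase that Birc5 and Cdca8 hold at centromeres, had 25 UMIs in 13 KO cells and 106 in 49 WT cells. Cenpe, a kinetochore motor, had log2 ratios of 4.18 in KO and 3.34 in WT. Nusap1, which bundles spindle microtubules, was at 123 CPM (86.4 to 171) in KO cycling cells, against 1.53 CPM in other KO cells, and at 121 CPM (105 to 137) in WT cycling cells, against 2.10 CPM in other WT cells. Stmn1, which takes microtubules apart, was found in 21 of 21 KO and 121 of 129 WT cycling cells, at 1248 CPM in KO cycling cells, against 84.8 CPM in other KO cells, and at 1122 CPM in WT cycling cells, against 86.3 CPM in other WT cells. Tuba1b, an alpha-tubulin, was at 1625 CPM in KO cycling cells, against 154 CPM in other KO cells, and at 1278 CPM in WT cycling cells, against 132 CPM in other WT cells. Of the anaphase, cohesin and condensin list 14 of 15 genes passed, with medians of 1.80 in KO and 1.94 in WT. Cdc20, which activates the anaphase-promoting complex, was at 61.7 CPM (36.6 to 97.5) in KO cycling cells, against 3.63 CPM in other KO cells, and at 72.1 CPM (60.6 to 85.3) in WT cycling cells, against 2.72 CPM in other WT cells. Fbxo5, which holds that complex back in S phase, had log2 ratios of 3.55 in KO and 3.26 in WT.

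Repair, DNA methylation and chromatin genes were higher as well. Over 13 of 18 repair and methylation genes the median log2 ratio was 2.42 in KO and 2.20 in WT (1.53 in KO and 1.39 in WT depth-weighted). Asf1b, a histone chaperone of replicating chromatin, was at 209 CPM (159.9 to 269) in KO cycling cells, against 6.70 CPM in other KO cells, and at 148 CPM (132 to 167) in WT cycling cells, against 9.27 CPM in other WT cells. Uhrf1, which guides maintenance methylation, had log2 ratios of 3.41 in KO and 2.86 in WT. The 12 chromatin and lamina genes all passed the minimum and were at least 1.5-fold higher in both libraries. Hmgb2, a chromatin protein, was found in 21 of 21 KO and 128 of 129 WT cycling cells, at 2286 CPM in KO cycling cells, against 429 CPM in other KO cells, and at 2194 CPM in WT cycling cells, against 442 CPM in other WT cells. Lmnb1, lamin B1 of the nuclear envelope, was at 236 CPM (184 to 299) in KO cycling cells, against 45.7 CPM in other KO cells, and at 217 CPM (197 to 239.5) in WT cycling cells, against 41.6 CPM in other WT cells.

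The 12 highest genes outside those lists were Neil3, Hist1h2ak, Cit, Tcf19, Diaph3, Esco2, Cdca5, Hist1h2bj, Shcbp1, Ska1, Depdc1a and Fignl1. Most of them also have roles in division that the lists had not covered. Neil3, a DNA glycosylase, was at 89.1 CPM (58.2 to 131) in KO cycling cells, against 0.727 CPM in other KO cells, and at 71.1 CPM (59.6 to 84.1) in WT cycling cells, against 0.927 CPM in other WT cells. Esco2 and Cdca5 (sororin) hold sister chromatids together, Cit (citron kinase) and Diaph3 (a formin) act in cytokinesis, and Ska1 sits at the kinetochore. Their smaller log2 ratio of the 2 libraries ran from 2.35 for Fignl1 to 3.68 for Neil3. The depth-weighted log2 ratios of these 12 were between 1.36 and 4.15.

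**Figure D3:**
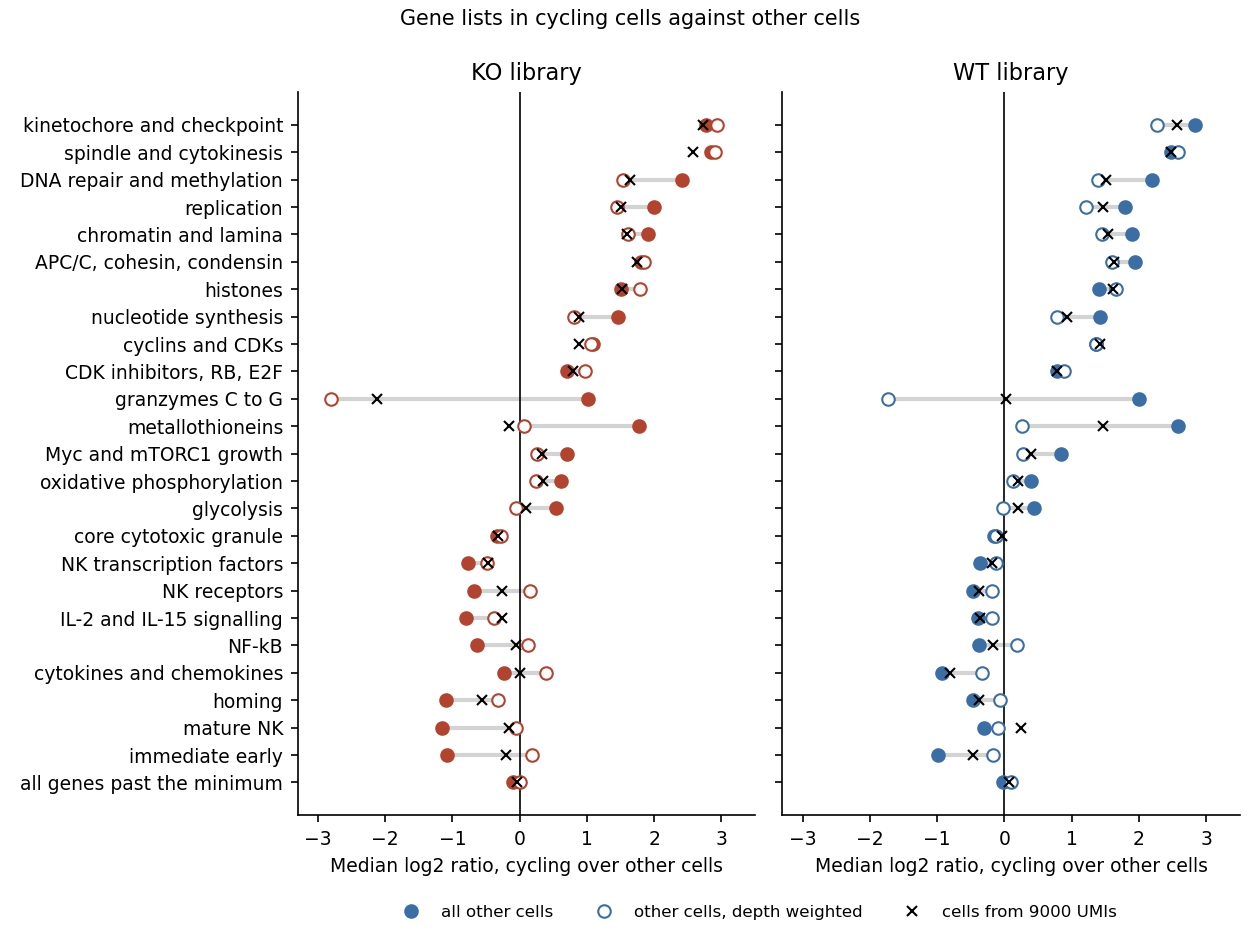
Median log2 ratio of cycling over other cells (x axis) for each gene list (rows), KO on the left and WT on the right; filled circles compare with all other cells, open circles with depth-weighted other cells and crosses use only cells with at least 9000 UMIs on both sides. The cell cycle lists keep medians above 0.6 by each comparison, while granzymes C to G lie at 1.02 in KO and 2.0 in WT against all other cells and at -2.81 in KO and -1.73 in WT depth-weighted.

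Growth and energy genes were higher to a smaller degree, and less so once depth was matched. The Myc and mTORC1 growth list had a median of 0.71 in KO and 0.84 in WT, and 0.25 in KO and 0.28 in WT depth-weighted. Ranbp1, a partner of the nuclear transport GTPase Ran, was at 593 CPM in KO cycling cells, against 140.1 CPM in other KO cells, and at 448 CPM in WT cycling cells, against 172 CPM in other WT cells. Mthfd2, a mitochondrial folate enzyme, had log2 ratios of 2.07 in KO and 1.79 in WT, and of 0.85 in KO and 1.04 in WT depth-weighted. Nuclear genes of oxidative phosphorylation had medians of 0.61 in KO and 0.39 in WT (0.25 in KO and 0.12 in WT depth-weighted). The glycolysis list, whose enzymes are known targets of Hif1a, had 0.54 in KO and 0.44 in WT, and -0.06 in KO and -0.02 in WT depth-weighted. Gapdh, the enzyme at the middle of that pathway, was at 1433 CPM (1299 to 1577) in KO cycling cells, against 462 CPM in other KO cells, and at 1767 CPM (1708 to 1828) in WT cycling cells, against 791 CPM in other WT cells. Against depth-weighted cells its log2 ratios were 0.54 in KO and 0.14 in WT. Vegfa, a secreted angiogenic factor and hypoxia target (chromosome 17, 46016993 to 46032369, minus strand), differed between the libraries. It had 8 UMIs in 7 KO cycling cells and 77 in 36 WT cycling cells, and was at 27.4 CPM (11.8 to 54.0) in KO cycling cells, against 309 CPM in other KO cells, and at 40.5 CPM (32.0 to 50.7) in WT cycling cells, against 66.6 CPM in other WT cells. Its log2 ratios of cycling over other cells were -3.28 in KO and -0.65 in WT, and -2.25 in KO and -0.37 in WT depth-weighted.

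Many genes of NK effector function and rest were at or below the level of other cells, less so once depth was matched. Ccl5, a chemokine of cytotoxic lymphocytes, was at 5892 CPM (5616 to 6177) in KO cycling cells, against 22170.1 CPM in other KO cells, and at 8618 CPM (8486 to 8751) in WT cycling cells, against 30018 CPM in other WT cells. The log2 ratios were -1.91 in KO and -1.80 in WT, but 0.07 in KO and -0.34 in WT against depth-weighted cells. Malat1, an abundant nuclear RNA, Btg1, which restrains proliferation, and Bcl2, a survival factor, had log2 ratios of -1.69 in KO and -1.60 in WT, of -2.07 in KO and -1.64 in WT and of -1.60 in KO and -1.60 in WT. Depth-weighted they were -0.39 in KO and -0.52 in WT for Malat1, -0.52 in KO and -0.45 in WT for Btg1 and -0.85 in KO and -0.56 in WT for Bcl2, all still below 0. Of the other lowest genes, Ccl9 and Tcp11l2 kept ratios under -1 in both libraries by both comparisons. Ccl9, a chemokine, had 2 UMIs in KO and 15 in WT cycling cells, at 6.85 CPM in KO cycling cells, against 87.8 CPM in other KO cells, and at 7.90 CPM in WT cycling cells, against 63.2 CPM in other WT cells. Tcp11l2 had 4 UMIs in KO and 24 in WT cycling cells. S1pr5, the receptor by which mature NK cells leave tissue, and Itga2, the integrin CD49b, had 2 and 0 UMIs in KO cycling cells and 28 and 4 in WT cycling cells.

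By list, immediate early genes had medians of -1.08 in KO and -0.99 in WT, and 0.19 in KO and -0.17 in WT depth-weighted. Jun, an AP-1 subunit of that list, was at 264 CPM in KO cycling cells, against 849.6 CPM in other KO cells, and at 381 CPM in WT cycling cells, against 1158 CPM in other WT cells. NK receptors had -0.67 in KO and -0.47 in WT (0.16 in KO and -0.19 in WT depth-weighted), and Klra4, an activating Ly49 receptor, was the lowest of them at 257 CPM (202 to 322) in KO cycling cells, against 1208 CPM in other KO cells, and at 443 CPM (413 to 474) in WT cycling cells, against 1286 CPM in other WT cells. It remained below other cells when depth-weighted, with log2 ratios of -1.18 in KO and -0.55 in WT. Klra genes are close paralogs, so their UMIs are uncertain where counting could split them. Mature NK genes had medians of -1.15 in KO and -0.30 in WT, but of -0.06 in KO and -0.09 in WT depth-weighted and of -0.15 in KO and 0.24 in WT among cells from 9000 UMIs. Immature NK genes had -0.60 in KO and -0.56 in WT, and -0.44 in KO and -0.22 in WT depth-weighted. Within the mature list Itgam (CD11b) was at 13.7 CPM (3.74 to 35.1) in KO cycling cells, against 122 CPM in other KO cells, and at 39.0 CPM (30.6 to 48.9) in WT cycling cells, against 119 CPM in other WT cells, while S100a4, a calcium-binding protein, was at 614 CPM (527 to 710.3) in KO cycling cells, against 99.5 CPM in other KO cells, and at 397 CPM (369 to 426) in WT cycling cells, against 125 CPM in other WT cells. Against depth-weighted cells the log2 ratios of Itgam were -1.07 in KO and -0.63 in WT, and those of S100a4 0.61 in KO and -0.56 in WT, so that its WT sign turned. Cd27, a receptor of immature NK cells, had log2 ratios of -0.90 in KO and -0.91 in WT, and -0.48 in KO and -0.84 in WT depth-weighted. Eomes and Tbx21, the T-box factors of NK cells, had log2 ratios of -0.87 in KO and -0.66 in WT and of -1.43 in KO and -0.55 in WT. The core cytotoxic list, which includes Gzma, Gzmb and Prf1, lay near the level of other cells with medians of -0.33 in KO and -0.16 in WT, and its sum was 23796 CPM in KO cycling cells, against 24640.1 CPM in other KO cells, and 24065 CPM in WT cycling cells, against 23494 CPM in other WT cells. The checkpoint list had medians of 0.37 in KO and 0.16 in WT, and -0.66 in KO and 0.08 in WT depth-weighted. Lag3, a receptor of that list, had 42 UMIs in 14 KO cycling cells (144 CPM), against 144 UMIs in 51 WT cycling cells (75.8 CPM). Havcr2 (TIM-3) had 3 UMIs in 3 KO cycling cells (10.3 CPM), against 129 UMIs in 39 WT cycling cells (67.9 CPM). Pdcd1 (PD-1) had 7 UMIs in 3 KO and 41 in 9 WT cycling cells, at log2 ratios of 1.63 in KO and 1.77 in WT and, depth-weighted, of 0.88 in KO and 1.14 in WT.

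Cycling cells were spread along a score of S and G2M genes in both libraries. Each was placed by the share of its UMIs of 41 S and 48 G2M genes (rule genes left out) that came from the S list. The share ran from 0.0145 to 0.684 in KO cells (median 0.406) and from 0.0441 to 0.875 in WT cells (median 0.384). The WT share of 0.875 rested on 7 S and 1 G2M UMIs. Other cells from 9000 UMIs had median shares of 0.462 in KO and 0.438 in WT. A middle share is thus also that of cells outside the rule and does not by itself place a cell in the cycle. Under 0.3 lay 6 of 21 KO cells (28.6%, 11.3 to 52.2%), against 44 of 129 WT cells (34.1%, 26.0 to 43.0%). From 0.5 upward lay 5 KO cells (23.8%, 8.22 to 47.2%), against 31 WT cells (24%, 16.9 to 32.3%). The make-up of the 2 libraries differed by less than the counting intervals. These are ranges of a score and not cell types, and within 0.05 of a limit lay 2 KO and 27 WT cells at 0.3 and 3 KO and 22 WT cells at 0.5.

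Genes that were in neither list differed along this order. In WT cells Ccnb1 stood at 87.7 CPM under 0.3, 18.4 CPM from 0.3 to 0.5 and 13.2 CPM from 0.5 upward. Plk1, a kinase of mitotic entry, stood at 75.6, 31.1 and 5.66 CPM in the same order. Cdkn3 went the same way, with 112, 60.7 and 5.66 CPM. The helicase subunit Mcm3 ran opposite to them, with 45.4, 162 and 272 CPM, as did Lig1 with 52.9, 172 and 228 CPM. Hist1h2ap was highest in the middle, with 1642, 2345 and 927 CPM. In the KO cells Mcm3 had 50.8, 144 and 242 CPM and Hist1h2ap 978, 1787 and 116 CPM, over 6, 10 and 5 cells. Cdkn3 had 114, 25.4 and 0 CPM in these KO cells. Ccnb1 was highest in the middle there, with 25.4, 42.4 and 0 CPM, and Plk1 had 38.1, 33.9 and 0 CPM. Nkg7 differed little, with 2753, 2487 and 2832 CPM in WT. Plk1 and Mcm3 were chosen after their values were seen.

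**Figure D4:**
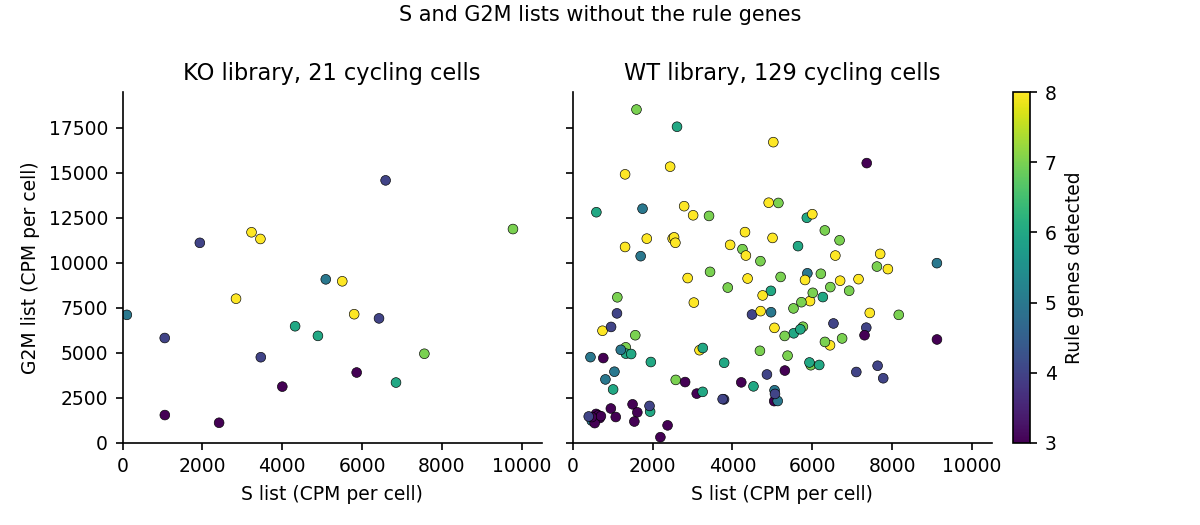
Each point is a cycling cell, with its S list (x axis) and G2M list (y axis) in CPM of that cell, rule genes left out, for KO (left) and WT (right); color gives how many of the 8 rule genes were detected. Cells with 8 rule genes lie high on the G2M axis, and cells with 3 are mostly low on it.

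Cycling cells were also compared between the genotypes. Of 4742 genes with at least 50 UMIs over the cycling cells, 56 were at least 2-fold higher in KO (1.18%) and 166 at least 2-fold lower (3.5%). In other cells 18 of the 56 were also 2-fold higher and 13 of the 166 also 2-fold lower, where 1.08% of all genes were higher and 0.443% lower. Among 186 genes of the cell cycle lists past the minimum, 1 was higher and 1 lower by that measure, where 1.18% of all genes were higher and 3.5% lower. Both groups were picked by the same 8 cell cycle genes, so likeness in these lists is in part set by the rule. With 21 KO cells, single cells weighed heavily, and for 8 of the 56 higher genes 1 KO cell held more than all the others together. The 10 lists of cell cycle roles had medians close to 0, from -0.19 for histones to 0.18 for replication and for repair. Outside that range lay the 8 rule genes at -0.23 and the S phase list, with its rule genes, at 0.33. Of the 38 S phase genes past the minimum, 4 were at least 1.5-fold higher in KO and 1 lower, where 5.99% of all genes were higher and 11.9% lower. The G2M list had -0.05. Hist1h2ap was lower in KO, with 1025 CPM in KO cycling cells, against 1705 CPM in WT cycling cells (log2 -0.73, counting interval -0.91 to -0.56). In the other direction Top2a, a rule gene, had 456 CPM in KO cycling cells, against 285 CPM in WT cycling cells (log2 0.67, counting interval 0.39 to 0.95).

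The lowest ratios of KO over WT in cycling cells were those of Ifitm1, Gzmg, Ifitm3, Mcpt8, Zbtb32, Ifitm2, Scin, Ltb4r1, Gzmd and Basp1. Ifitm1, a membrane protein of the interferon-induced family on chromosome 7, 140967221 to 140969825, plus strand, was at 0 UMIs in 0 KO cycling cells (0 CPM), against 1005 UMIs in 35 WT cycling cells (529 CPM), at least 51.5-fold lower in KO with 3 counts as the floor over all KO cycling cells. Its level was 4.84 CPM in other KO cells, against 32.6 CPM in other WT cells. Ifitm3 (chromosome 7, 141009586 to 141010770, minus strand) had 0 UMIs in 0 KO cycling cells (0 CPM), against 130 UMIs in 26 WT cycling cells (68.5 CPM), at least 6.66-fold lower. For Ifitm2 the 11 KO UMIs lay in 1 cell, against 788 UMIs in 34 WT cells. Gzmg, a granzyme (chromosome 14, 56156582 to 56159579, minus strand), had 3 UMIs in 2 KO cycling cells (10.3 CPM), against 1293 UMIs in 46 WT cycling cells (681 CPM), a ratio of log2 -5.49, counting interval -8.33 to -4.50. Its neighbors Gzmc, Gzmd, Gzme and Gzmf on chromosome 14 were lower in KO cycling cells too. Gzmc had 1577 CPM in KO cycling cells, against 2737 CPM in WT cycling cells, and Gzme had 106 CPM in KO cycling cells, against 645 CPM in WT cycling cells. Over Gzmc to Gzmg the median log2 ratio of KO over WT was -2.55 in cycling and -1.36 in other cells. In cycling cells it was -1.25 without cells of at least 3 Ifitm1 to Ifitm3 UMIs and -5.60 without the 3% of cells with most UMIs, which left 5 KO cells. These granzymes are close paralogs, so their single values are uncertain where counting could split them. Zbtb32, a transcriptional repressor that NK cells need to proliferate in viral infection in mice, and Mcpt8, a protease gene known from basophils, had 0 UMIs in KO and 85 UMIs each in WT cycling cells, in 34 and 17 cells, at least 4.35-fold lower in KO for each. Scin, an actin-severing protein, and Ltb4r1, a leukotriene B4 receptor, also had 0 UMIs in KO, against 71 and 70 UMIs in WT cycling cells, at least 3.64-fold and 3.58-fold lower. Scin was detected in 11 of the 23 WT cycling cells with at least 3 Ifitm1 to Ifitm3 UMIs and in 1 of the other 106. The fold bounds given for genes at 0 treat UMIs as independent. They do not account for the clumping of UMIs in part of the WT cells, so they are not bounds over cells. Gzmd had 39 UMIs in 1 KO cell, against 1997 UMIs in 46 WT cells (log2 -2.93, counting interval -3.47 to -2.52). Basp1, a membrane-bound signalling protein, had 1 UMI in KO, against 92 UMIs in WT cycling cells (log2 -2.66, counting interval -9.14 to -1.31). Of 5 basophil and mast markers 2 had UMIs in WT cycling cells, with a sum of 45.3 CPM, against 13.0 CPM in other WT cells, while Ms4a2, Fcer1a and Gata2 were at 0. Depth-weighted, other WT cells had 126 CPM, above the cycling cells. In KO cycling cells 1 of the 5 had a UMI, at 3.43 CPM.

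These genes lay together in a few deep WT cells. At least 3 UMIs of Ifitm1 to Ifitm3, a threshold chosen after the values were seen, were carried by 1 of 21 KO cycling cells (4.76%, 0.120 to 23.8%), against 23 of 129 WT cycling cells (17.8%, 11.7 to 25.5%). Those 23 WT cells had a median of 24013 UMIs, against 11698 in the other 106 WT cycling cells. Their summed Gzmc to Gzmg level was 16697 CPM, against 1022 CPM in the others. Il2ra, the high-affinity chain of the IL-2 receptor, was detected in 20 of the 23, against 7 of the 106. Zbtb32 was detected in 22 of the 23, against 12, and Havcr2 in 20, against 19. Spp1, the secreted protein osteopontin, named here after its values were seen, was at 4103 CPM, against 277 CPM. Mt1, a metallothionein, was at 924 CPM, against 90.4 CPM. Nkg7 and Ncr1 differed less, at 2482 and 286 CPM in the 23 cells, against 2762 and 347 CPM in the 106. The G2M list was lower in them, at 3861 CPM, against 7456 CPM, and so was Mki67, at 111 CPM, against 165 CPM. Detection of a gene grows with depth, and its part in these counts of cells was not tested.

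The same genes were not confined to cycling cells. Among cells with at least 9000 UMIs, 3 or more Ifitm UMIs were carried by 1 of 17 (5.88%, 0.149 to 28.7%) of the KO cycling cells, against 5 of 81 (6.17%, 2.03 to 13.8%) of other KO cells, and by 23 of 101 (22.8%, 15.0 to 32.2%) of the WT cycling cells, against 15 of 206 (7.28%, 4.13 to 11.7%) of other WT cells. At least 50 Gzmc to Gzmg UMIs were carried by 3 of 17 (17.6%, 3.80 to 43.4%) of the KO cycling cells, against 7 of 81 (8.64%, 3.55 to 17.0%) of other KO cells, and by 20 of 101 (19.8%, 12.5 to 28.9%) of the WT cycling cells, against 21 of 206 (10.2%, 6.42 to 15.2%) of other WT cells. Against all other cells the granzyme list stood higher in cycling cells, with a sum of 2056 CPM in KO cycling cells, against 495 CPM in other KO cells, and 5835 CPM in WT cycling cells, against 1357 CPM in other WT cells. Its median log2 ratio was 1.02 in KO and 2.0 in WT. Against depth-weighted cells the sign turned, with -2.81 in KO and -1.73 in WT, and among cells from 9000 UMIs it was -2.12 in KO and 0.02 in WT. A few cells set all of these values, since the 3 KO and 20 WT cycling cells with at least 50 such UMIs held 91.2% of the list's UMIs in KO cycling cells and 94.9% in WT cycling cells. Spp1 showed the same dependence, with log2 ratios of 3.69 in KO and 2.29 in WT against all other cells and of 0.01 in KO and -0.36 in WT depth-weighted. Leaving out the Ifitm cells among cycling and other cells alike, the granzyme list's median was -0.48 in KO and -0.09 in WT.

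**Figure D5:**
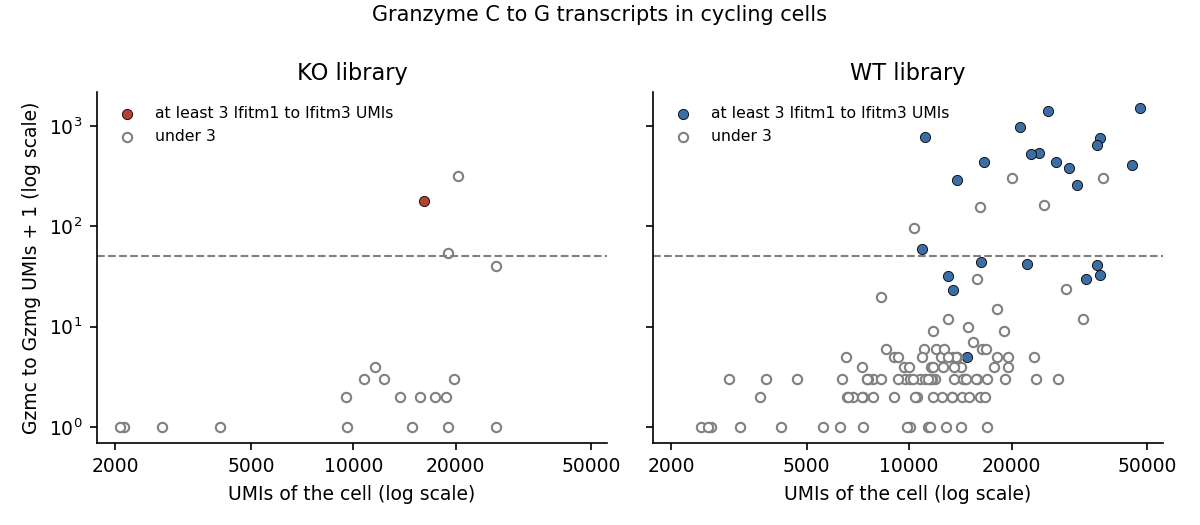
Gzmc to Gzmg UMIs plus 1 (y axis, log scale) against all UMIs of each cycling cell (x axis, log scale), KO on the left and WT on the right; filled points carried at least 3 Ifitm1 to Ifitm3 UMIs, open points fewer, and the dashed line marks 50 granzyme UMIs. Above the line lie 3 KO and 20 WT cells, 1 and 15 of them filled, and the median cell had 1 such UMI in KO and 3 in WT.

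The highest ratios of KO over WT in cycling cells were those of H2-Aa, Rrad, Cd74, Nrgn, Xcl1, Ccl4, Egr1, Kdm6b, Nfkbid and Serpine2. H2-Aa and Cd74, of MHC class II presentation, led the list. H2-Aa had 185 CPM in KO cycling cells, against 12.1 CPM in WT cycling cells, and a single KO cell held 52 of its 54 KO UMIs. Cd74 had 394 CPM in KO cycling cells, against 60.0 CPM in WT cycling cells, and the same cell held 94 of its 115 KO UMIs. Without cells of at least 50 class II UMIs, a limit set after the values were seen, the log2 ratio of KO over WT for H2-Aa was -0.45 and for Cd74 0.37. Of 6 dendritic cell markers 3 had UMIs in KO cycling cells, with a sum of 685 CPM, against 131 CPM in other KO cells, and Flt3, Xcr1 and Siglech were at 0. In WT the sum was 120.1 CPM in cycling cells, against 149.9 CPM in other cells. Depth-weighted, other KO cells had 528 CPM and other WT cells 262 CPM of these markers. Xcl1, a chemokine for cross-presenting dendritic cells, had 392 UMIs in 13 KO cycling cells (1344 CPM), against 507 UMIs in 85 WT cycling cells (267 CPM), and 1 KO cell held 253 of the KO UMIs. Rrad, a small GTPase, also rested on 1 cell, with 55 of its 83 KO UMIs. More evenly spread was Ccl4, a chemokine (MIP-1beta), with 947 UMIs in 20 KO cycling cells (3246 CPM), against 1338 UMIs in 119 WT cycling cells (705 CPM) (log2 2.20, counting interval 2.08 to 2.32). It was at 3821 CPM in other KO cells, against 1783 CPM in other WT cells. Nrgn, a calmodulin-binding protein, had 104 UMIs in 15 KO cycling cells (356 CPM), against 125 UMIs in 54 WT cycling cells (65.8 CPM) (log2 2.35, counting interval 2.05 to 2.82), while it was at 47.2 CPM in other KO cells, against 45.6 CPM in other WT cells. Serpine2, a protease inhibitor, had 52 UMIs in 8 KO cycling cells (178 CPM), against 92 UMIs in 32 WT cycling cells (48.4 CPM) (log2 1.78, counting interval 1.36 to 2.39), and was at 30.1 CPM in other KO cells, against 33.9 CPM in other WT cells. Egr1, an immediate early transcription factor, had 36 UMIs in 7 KO cycling cells (123 CPM), against 48 UMIs in 28 WT cycling cells (25.3 CPM) (log2 2.08, counting interval 1.62 to 2.94), and was at 91.0 CPM in other KO cells, against 47.8 CPM in other WT cells. Kdm6b, a demethylase of histone H3, and Nfkbid, a nuclear IkB protein, were higher in KO in both kinds of cells. Kdm6b had 295 CPM in KO cycling cells, against 73.2 CPM in WT cycling cells (log2 1.94, counting interval 1.60 to 2.41), and 393 CPM in other KO cells, against 135 CPM in other WT cells. Nfkbid had 137 CPM in KO cycling cells, against 34.8 CPM in WT cycling cells (log2 1.84, counting interval 1.38 to 2.57), and 247 CPM in other KO cells, against 51.9 CPM in other WT cells.

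By list, NF-kB genes were higher in KO cycling cells, with 10 of 15 past the minimum at least 1.5-fold higher and 0 lower, where 5.99% of all genes were higher and 11.9% lower. The median log2 ratio was 0.73 in cycling and 1.05 in other cells. Nfkbiz, an inducible nuclear IkB protein, had 199 CPM in KO cycling cells, against 63.2 CPM in WT cycling cells (log2 1.58, counting interval 1.18 to 2.12), and 460.1 CPM in other KO cells, against 112 CPM in other WT cells. Tnfaip3, the A20 inhibitor of NF-kB signalling, had 418 CPM in KO cycling cells, against 253 CPM in WT cycling cells (log2 0.71, counting interval 0.42 to 1.01). Immediate early genes had a median of 0.49 in cycling and 0.70 in other cells. Glycolysis genes had -0.45 and -0.41, with 3 of 15 at least 1.5-fold lower in KO cycling cells and 0 higher. Tpi1, triose phosphate isomerase, had 336 CPM in KO cycling cells, against 491 CPM in WT cycling cells (log2 -0.54, counting interval -0.86 to -0.25), Gapdh had 1433 CPM in KO cycling cells, against 1767 CPM in WT cycling cells (log2 -0.30, counting interval -0.45 to -0.16), and Ldha, lactate dehydrogenase, had 1199.6 CPM in KO cycling cells, against 1145 CPM in WT cycling cells (log2 0.07, counting interval -0.10 to 0.23). Vegfa, 309 CPM in other KO cells and 66.6 CPM in other WT cells, had 27.4 CPM in KO cycling cells, against 40.5 CPM in WT cycling cells (log2 -0.49, counting interval -1.83 to 0.49). The KO to WT gap of Vegfa in other cells was thus not seen in cycling cells, and the difference between these 2 gaps was not tested. Hspa1a, a heat shock chaperone, was lower in KO in both kinds of cells, with 96.0 CPM in KO cycling cells, against 381 CPM in WT cycling cells, and 382 CPM in other KO cells, against 1018 CPM in other WT cells, but without the 3% of cells with most UMIs, which left 5 KO cycling cells, its log2 ratio of KO over WT was 0.36. Metallothioneins, which bind zinc, were lower too. Mt1 had 25 UMIs in 4 KO cycling cells (85.7 CPM), against 658 UMIs in 49 WT cycling cells (346 CPM) (log2 -1.95, counting interval -2.65 to -1.44), and Mt2 had 9 UMIs in 2 KO cycling cells (30.8 CPM), against 315 UMIs in 35 WT cycling cells (166 CPM) (log2 -2.25, counting interval -3.57 to -1.48). When each cell was given the same weight the sign turned, with log2 ratios of KO over WT of 0.21 for Mt1 and 0.40 for Mt2. Against all other cells the metallothionein list was higher in cycling cells, with medians of 1.77 in KO and 2.58 in WT, and against depth-weighted cells it was near their level, with 0.07 in KO and 0.26 in WT.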

How the data were processed

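Single-cell 3′ RNA libraries of tumor NK cells were made on the 10x platform, 1 from KO mice and 1 from WT mice. For each library the authors deposited a table of raw UMI counts, with genes in rows and barcodes in columns. Per the submitters' processing notes, Cell Ranger 2.0.2, Seurat and the build mm10 were used, with no role given. Which annotation was used, how cells were called and whether doublets were removed is not given in the sources used here. Kept barcodes had 500 or more detected genes and no more than 10% of UMIs from mitochondrial genes, and doublets were not called. Sums of UMIs over cycling and over other cells were scaled, per library, to 1000000 (CPM). Log2 ratios had 5 CPM added. Genes needed 100 UMIs over both libraries, or 50 over the cycling cells for KO against WT. Intervals of CPM are exact Poisson, of shares Clopper-Pearson, and of KO over WT conditional binomial, all at 95%. They treat UMIs or cells as independent and cover counting error only. Ratio intervals leave out the added CPM, which puts them further from 0 than the ratio where UMIs are few. With 1 library per genotype no test was possible. Depth weighting gave the other cells the cycling cells' shares of UMIs over 7 depth classes. Thinning to 2500 or 4000 UMIs used a fixed seed. The steps were tested on simulated data with Python 3.11.15, numpy 2.4.6, scipy 1.17.1 and pandas 2.3.3. Figures were drawn with matplotlib 3.10.9.

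The members and the gene lists were chosen with earlier results of these data known. The genes named were the 8 rule genes, Hif1a, up to 4 genes per list with the largest ratio, the 12 highest and 12 lowest genes outside the cell cycle lists, and the 10 highest and 10 lowest ratios of KO over WT. The last groups leave out gene models without a name, antigen receptor, hemoglobin, ribosomal and mitochondrial genes, Y-linked genes, Xist and Tsix. Spp1, and the genes chosen for their place along the cycle, were taken after their values were seen, as were other members of the lists that are named to describe the cells. Values of close paralogs (histones, Klra, Ifitm and granzyme genes) are uncertain where counting could split their reads. Alternatives varied the rule, the depth, the filter, the added CPM, the scaling and the cells left out.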

Additional observations from a re-analysis of the deposited data

Results flagged for a closer look

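Cells above the Cd3 limit, which the report does not use, also held cells with at least 3 of the 8 rule genes. They were 5 of 94 such KO cells (5.32%) and 14 of 193 such WT cells (7.25%). Dntt, the terminal transferase of lymphocyte precursors, stood at 174 CPM in those 5 KO cells and at 147 CPM in those 14 WT cells, in 4 and 3 cells. It was at 0 CPM in KO cycling cells and 1.05 CPM in WT cycling cells.

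A pair of genes had ratios of cycling over other cells that pointed opposite ways in the libraries. For Ifitm3 the log2 ratio, with 5 CPM added, was -1.75 in KO, where the cycling cells had 0 UMIs, and 2.53 in WT. For Gzmg it was -2.03 in KO, where the cycling cells had 3 UMIs, and 2.0 in WT. Against depth-weighted other cells the WT log2 ratios were -0.12 for Ifitm3 and -1.73 for Gzmg, so that they no longer pointed opposite to KO. The difference between the libraries was not tested for either gene. By at least 2-fold in each library, 8 genes pointed opposite ways when depth-weighted, against 2 without the weighting.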

How the results depend on the processing

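No paired analysis was possible because there was 1 library per genotype and the labels give no replicate numbers. The share of cycling cells was lower in KO than in WT under each of the alternatives run. It was 0.312% in KO and 2.17% in WT when thinned to 2500 UMIs, 1.45% in KO and 6.57% in WT with 2 of the 8 genes, and 0.173% in KO and 2.35% in WT without the 3% of cells with most UMIs. It was 3.18% in WT with 4 genes, 2.80% in WT with no Cd3d, Cd3e or Cd3g UMI, and 1.68% in KO when weighted to the WT depth. Of 2-fold higher genes in cycling cells, 291 in KO and 193 in WT were left with a minimum of 500 UMIs, and 2117 in KO without the deepest 3%. Of 2-fold lower genes, there were 1750 in KO and 493 in WT with 1 CPM added, 622 in KO with 500 UMIs, 695 in KO and 52 in WT when depth-weighted, 4215 in KO without the deepest 3%, and 40 in WT with only cells from 9000 UMIs. For KO over WT in cycling cells, 158 genes were higher and 251 lower by the mean of CPM per cell, 158 and 366 with at least 20 UMIs, 13 and 22 with at least 200 UMIs, 873 and 1471 without the deepest 3%, and 92 were higher with 4 of the 8 genes. Leaving out the deepest 3% moved the median log2 ratio of all genes in KO to -0.83, so its ratios are read against that value, and depth weighting moved it to 0.00 in KO and 0.10 in WT. The turns of sign that follow are of list medians past 1.5-fold and gene ratios past 2-fold. Against depth-weighted other cells, the sign turned for the list medians of cycling over other KO cells of -2.81 for granzymes C to G, 0.16 for NK receptors, 0.19 for immediate early genes and 0.13 for NF-kB genes. It turned as well for the list median of cycling over other WT cells of -1.73 for granzymes C to G. The log2 ratios of cycling over other KO cells of 0.067 for Ccl5, -0.82 for Gzmc, -1.19 for Gzme, -2.81 for Gzmf, -1.99 for Ifitm2, -0.90 for Lag3, -0.55 for Mt2, 0.41 for Nfkbiz, 0.25 for Tnfaip3 and -0.055 for Tpi1 also turned. The log2 ratios of cycling over other WT cells of -0.82 for Basp1, -1.74 for Gzmc, -1.15 for Gzmd, -0.31 for Gzme, -2.08 for Gzmf, -1.73 for Gzmg, -0.12 for Ifitm3, -0.22 for Ltb4r1, -1.40 for Mcpt8, -0.56 for S100a4, -0.36 for Spp1 and -0.087 for Zbtb32 also turned. Without the 3% of cells with most UMIs, which left 5 KO cycling cells, the sign turned for the list medians of cycling over other KO cells of -1.38 for granzymes C to G, 0.58 for NK receptors, -0.22 for oxidative phosphorylation and 0.092 for homing receptors. It turned as well for the log2 ratios of cycling over other KO cells of -0.41 for Cd74, -0.21 for Cdkn3, -0.25 for Cenpe, -1.38 for Gzmc, -0.83 for Gzme, -2.73 for Gzmf, -2.30 for H2-Aa, 0.15 for Hspa1a, -1.41 for Ifitm2, 0.62 for Jun, -2.16 for Lig1, -1.04 for Rrad and 0.0058 for S1pr5. The log2 ratios of KO over WT cycling cells of -0.15 for Cd74, -1.90 for H2-Aa, 0.46 for Havcr2, 0.36 for Hspa1a, 1.90 for Mt1 and 1.71 for Mt2 also turned. With only cells from 9000 UMIs, the sign turned for the list median of cycling over other KO cells of -2.12 for granzymes C to G. It turned as well for the log2 ratios of cycling over other KO cells of -1.13 for Gzme, -2.12 for Gzmf, -1.11 for Ifitm2, -0.48 for Lag3 and -0.60 for Mt2. The log2 ratios of cycling over other WT cells of -0.30 for Gzmc and -0.42 for Gzmf also turned. Without cells from 3 Ifitm1 to Ifitm3 UMIs, the sign turned for the list median of cycling over other KO cells of -0.48 for granzymes C to G. It turned as well for the list median of cycling over other WT cells of -0.087 for granzymes C to G. The log2 ratios of cycling over other KO cells of -0.75 for Gzmf and -0.65 for Ifitm2 also turned. The log2 ratios of cycling over other WT cells of -0.48 for Gzmd, -1.37 for Gzmf, -0.087 for Gzmg, -0.17 for Ifitm1, -0.13 for Ifitm2, -0.11 for Ltb4r1 and -0.26 for Mcpt8 also turned. The log2 ratio of KO over WT cycling cells of 0.39 for Il2ra also turned. Without cells from 50 class II UMIs, the sign turned for the log2 ratio of cycling over other KO cells of -0.35 for H2-Aa. It turned as well for the log2 ratio of KO over WT cycling cells of -0.45 for H2-Aa. With each cell given the same weight, the sign turned for the log2 ratios of KO over WT cycling cells of 0.21 for Mt1 and 0.40 for Mt2. Of medians under 1.5-fold, depth weighting also turned those of NF-kB genes in WT to 0.19, of checkpoints in KO to -0.66, of cytokines and chemokines in KO to 0.40 and of glycolysis to -0.06 in KO and -0.02 in WT. Other turns of medians under 1.5-fold are not listed. Of 2605 log2 ratios of named genes past 2-fold over all alternatives, 1838 stayed within the counting interval of the reported ratio, taken with the added CPM, and 705 moved beyond it with the same sign. The cause of these shifts was not tested. Leaving out cells by 9000 UMIs, by Ifitm UMIs or by class II UMIs was chosen after seeing the data. With 21 KO cells and 3.43 CPM per UMI, a count of 0 in KO cycling cells allowed levels up to 10.3 CPM. KO levels under that value rest on very few UMIs and are uncertain.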
